A study of Mus musculus with 27 samples.

Results

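Mreg, Prkg2, Mycl and Tgm2 are 4 of the 22524 genes counted in RNA sequencing of mouse jejunal organoids, the small intestinal epithelial line m-ICc12 and mouse embryonic fibroblasts (MEFs). They were chosen from the genes with the strongest difference between TNF-treated and untreated organoids, as less known genes of that response, so their organoid TNF values are described here without a test. Organoids are epithelial cultures grown from intestinal crypts in Matrigel. They came from 9 adult male C57BL/6J mice, 3 from each of 2 specific pathogen-free (SPF) facilities, SR and SE, and 3 germ-free (GF) mice, and each of the 9 cultures gave 1 library with TNF (5 ng/ml, 8 h) and 1 without. The immortalised m-ICc12 line gave the same pair of libraries under 3 numbers, taken here as 3 cultures of 1 line. That the libraries of a number share a culture is known from the number only. The MEFs gave 3 untreated libraries. Beside a number, SE stands for the standard error, and elsewhere for the facility.

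The treatment labels need a word before any result. For each of the 12 pairs of organoid and m-ICc12 libraries, the name code of the deposited counts gives the opposite treatment to the sample label. The labels were followed, so "labelled TNF" and "labelled untreated" are used throughout. Nfkbia, the inhibitor of NF-κB that NF-κB itself induces, went against the labels: in organoids it lay between 23.7 and 36.6 CPM (counts scaled to library size after TMM normalization) in the libraries labelled TNF and between 149 and 227 CPM in those labelled untreated. In m-ICc12 it lay between 14.5 and 21.9 CPM in the libraries labelled TNF and between 68.6 and 113 CPM in those labelled untreated. Of the TNF and NF-κB targets tested, 9 of 11 in organoids and 6 of 11 in m-ICc12 were lower in the libraries labelled TNF. These had an adjusted p under 0.05 with edgeR, and 0 targets were higher. By the name code, every TNF difference below has the same size and the opposite sign. Lower in the libraries labelled TNF is therefore not to be read as lowered by TNF.

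As background, TNF binds its receptor and activates NF-κB, which moves to the nucleus and switches on inhibitors of the pathway, cytokines and adhesion molecules. The 4 genes sit outside that core. Mreg encodes melanoregulin, a small membrane-associated protein that helps to move melanosomes and lysosome-related organelles along microtubules. Prkg2 encodes cGMP-dependent protein kinase II, which in the gut acts below the guanylin receptor Gucy2c on chloride and sodium transport. Mycl encodes L-Myc, a transcription factor of the MYC family that pairs with Max. Tgm2 encodes transglutaminase 2, which cross-links proteins and is the autoantigen of coeliac disease.

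In GRCm38 with GENCODE annotation, Mreg (ENSMUSG00000039395) lies on the minus strand of chromosome 1 from 72159442 to 72212307 and has 5 exon blocks. Prkg2 (ENSMUSG00000029334) lies on the minus strand of chromosome 5 from 98929773 to 99037351, and Mycl (ENSMUSG00000028654) on the plus strand of chromosome 4 from 122995652 to 123002485. Tgm2 (ENSMUSG00000037820) lies on the minus strand of chromosome 2 from 158116402 to 158146436, and its exons overlap those of Rprd1b on the plus strand. Since the use of strand in counting was not stated, reads of Tgm2 and Rprd1b cannot be told apart in the overlap.

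Promoter sequences of Mreg and Mycl, from RefSeq on GRCm38.p6, are shown because the promoter set used held entries for no other of the chosen genes. Each run is the 100 bases before an annotated start site, 5′ to 3′ on the gene's strand, at chr1:72212315-72212414 (minus strand) and chr4:122995831-122995930 (plus strand). The Mycl window lies within the gene's annotated span because another transcript starts further upstream. Capitals mark the match to TATAAA.
Mreg: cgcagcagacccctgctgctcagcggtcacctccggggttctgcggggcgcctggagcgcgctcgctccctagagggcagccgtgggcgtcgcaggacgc
Mycl: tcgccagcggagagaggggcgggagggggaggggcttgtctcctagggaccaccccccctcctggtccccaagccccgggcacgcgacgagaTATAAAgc
Guanine and cytosine made up 75.0% of the Mreg run and 70.0% of the Mycl run. Both strands of the 250 bases before each start were searched for the NF-κB consensus, for TATAAA and for CACGTG, the E-box bound by MYC and MAX. Of 32851 mouse promoter windows of that length, 7.25% held the NF-κB consensus, 12.4% held TATAAA and 6.02% held CACGTG. The Mycl window held TATAAA once, starting 8 bases before the start site, and neither of the other motifs. The Mreg windows, at 2 start sites that lie close together, held none of the 3. The promoter set held no entry for Prkg2 or Tgm2.

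The total count per library lay between 6071103 and 43843615, with a median of 30339856. A count of 3, taken as the floor, then corresponds to between 0.0684 and 0.494 CPM. The tissue labels were checked against marker genes. The 6 epithelial markers summed to between 3268 and 3803 CPM in organoids. In m-ICc12 they summed to between 522 and 757 CPM, of which Krt20 gave between 477 and 709 CPM, while Epcam stayed at or below 7.10 CPM, Cdh1 at or below 6.75 CPM and Cdx2 at or below 0.715 CPM. MEFs held between 1793 and 2393 CPM of the collagen gene Col1a1, though Thy1 had 0 counts and Dcn did not exceed 0.225 CPM. The 4 immune markers summed to at most 0.262 CPM in organoids. The melanocyte marker Tyr did not exceed 3 counts in any library, and the 4 melanocyte markers summed to at most 5.37 CPM in organoids.

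Mreg showed the steadiest organoid difference of the 4 genes. In the 9 organoid libraries labelled untreated it ranged from 71.8 to 89.1 CPM with a median of 81.2 CPM (81.4 ± 5.47, SD, n = 9). In the 9 labelled TNF it ranged from 25.7 to 35.9 CPM with a median of 28.8 CPM (29.6 ± 3.41, SD, n = 9). The ranges did not overlap, and the level was lower in the library labelled TNF in 9 of 9 cultures. Within a culture the library labelled untreated held between 2.41 and 3.04 times as much Mreg as the one labelled TNF, with a median of 2.79. The fitted log2 difference was -1.46 (SE 0.09).

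Prkg2 ranged from 86.5 to 132 CPM with a median of 117 CPM in the organoid libraries labelled untreated (113 ± 16.7, SD, n = 9). It ranged from 48.3 to 78.1 CPM with a median of 55.0 CPM in those labelled TNF (60.5 ± 11.1, SD, n = 9). The ranges lay apart, and 9 of 9 cultures were lower in the library labelled TNF. The ratio within a culture ran from 1.58 to 2.43, and the fitted log2 difference was -0.90 (SE 0.11).

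Mycl ranged from 71.1 to 103 CPM with a median of 82.3 CPM in the organoid libraries labelled untreated (82.5 ± 10.1, SD, n = 9). In those labelled TNF it ranged from 28.7 to 56.3 CPM with a median of 42.7 CPM (42.6 ± 8.36, SD, n = 9). Again the ranges did not meet, but the size varied between cultures. The ratio within a culture ran from 1.40 in an SE culture to 2.60, and the fitted log2 difference was -0.96 (SE 0.11).

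Tgm2 ranged from 127 to 159 CPM with a median of 142 CPM in the organoid libraries labelled untreated (141 ± 8.45, SD, n = 9). In those labelled TNF it ranged from 69.7 to 118 CPM with a median of 82.0 CPM (83.8 ± 15.9, SD, n = 9). The highest library labelled TNF came from an SE culture and the lowest labelled untreated from an SR culture, at 127 CPM, so the ranges came close to each other. The ratio within a culture ran from 1.2 to 2.22, and the fitted log2 difference was -0.75 (SE 0.09). Rprd1b, the overlapping gene, went the other way, from a median of 54.0 CPM in the libraries labelled untreated to 64.9 CPM in those labelled TNF.

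These values chose the genes. By p-value they stood at rank 2 (Mreg), 21 (Mycl), 23 (Prkg2) and 24 (Tgm2) of 12104 genes, between such neighbours as Nfkbia, Cyba, Tcim and H2-M2. With edgeR's quasi-likelihood test, 1.39% of the genes tested had a Benjamini-Hochberg adjusted p under 0.05, and 0.438% had every library labelled TNF below every library labelled untreated, as all 4 genes did. With the culture as a block, the number of genes called rose from 168 to 397. The 4 genes had low spread in the libraries labelled untreated, though genes of every level enter the median they are set against. The coefficient of variation among libraries labelled untreated was 6.73% for Mreg, 5.99% for Tgm2, 12.3% for Mycl and 14.8% for Prkg2, against a median of 22.4% over all genes. In those labelled TNF it was 11.5% for Mreg and between 18.3% and 19.7% for the other 3 genes, against a median of 19.1%.

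**Figure D1:**
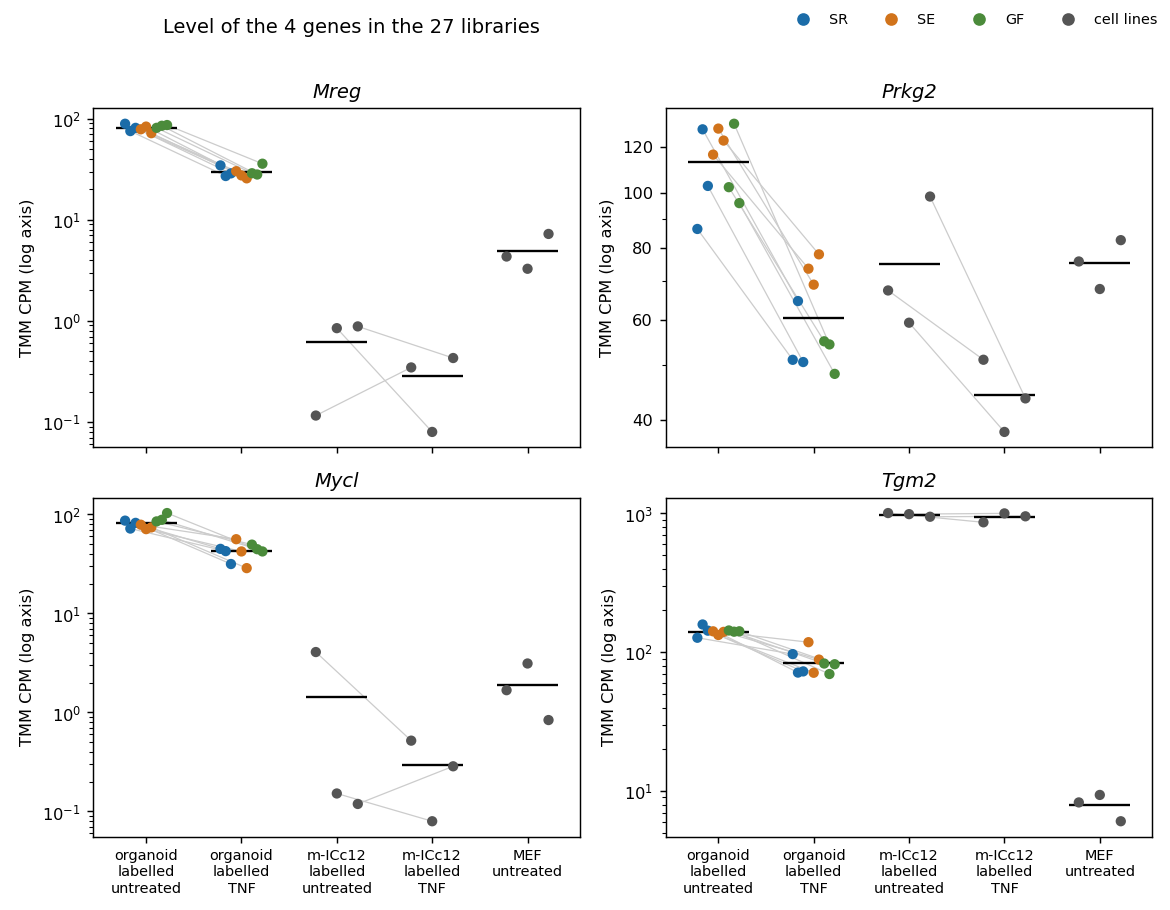
TMM CPM (log axis, own scale in each panel) of the 4 genes in the 27 libraries, with a point per library, a bar at the mean and a grey line joining the libraries of 1 culture. The organoid groups do not overlap for any of the 4 genes, m-ICc12 holds almost no Mreg or Mycl and the most Tgm2, and MEFs hold Prkg2 at 67.9 to 82.6 CPM.

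Per kilobase of exon, which allows levels to be compared between genes, the order in organoids labelled untreated was Mreg, Tgm2, Prkg2 and Mycl. Mreg reached 35.6 ± 2.40 RPKM, Tgm2 30.6 ± 1.83, Prkg2 21.1 ± 3.11 and Mycl 20.4 ± 2.50 (SD, n = 9). The ranges of Mreg and Tgm2 overlapped, as did those of Prkg2 and Mycl, while those of Tgm2 and Prkg2 did not. In the organoid libraries labelled TNF, Tgm2 came first at 18.2 ± 3.45 RPKM, ahead of Mreg at 13 ± 1.49, Prkg2 at 11.3 ± 2.06 and Mycl at 10.5 ± 2.07 (SD, n = 9). There the ranges of neighbours in the order overlapped. The position of Mreg thus differed between the labelled groups.

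The m-ICc12 libraries took no part in choosing the genes, and TNF label differences there were tested. Of the 4 genes, 3 passed the filter on low values (10 or more counts in 50% or more of a group's libraries). Of these 3, 0 were called, where 0.11% of all genes tested were. Mreg passed through the libraries labelled untreated only, so its value there is a description. Over all genes that comparison made 13 calls with edgeR.

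Prkg2 came nearest. It was measured at 67.5, 59.3 and 98.5 CPM in the m-ICc12 libraries labelled untreated and at 51.1, 38.2 and 43.7 CPM in the libraries labelled TNF of the same cultures. It was lower in 3 of 3 cultures, by 1.32 to 2.25 times, and the groups did not overlap, which held in this direction for 5.61% of all genes tested. The log2 difference was -0.76 (SE 0.22, 95% interval -1.22 to -0.29), with an adjusted p of 0.61 and an unadjusted p of 0.00344 from edgeR's quasi-likelihood test. Over the 8 alternatives the adjusted p lay between 0.116 and 1.0.

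Tgm2 was far more abundant in m-ICc12 than in organoids, and its difference by label was close to 0. The libraries labelled untreated held 1007, 989 and 947 CPM, and those labelled TNF 864, 1001 and 954 CPM. The groups overlapped, and 1 of 3 cultures was lower in the library labelled TNF. The log2 difference was -0.05 (SE 0.14, 95% interval -0.35 to 0.26), with an adjusted p of 0.996 from edgeR.

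Mreg and Mycl were close to the limit of detection in m-ICc12. Mreg had 4, 39 and 37 counts in the libraries labelled untreated and 2, 3 and 9 counts in those labelled TNF. Its log2 difference of -1.16 had a 95% interval from -4.09 to 1.77, which holds both 0 and the difference in organoids. Mycl had 141, 7 and 5 counts in the libraries labelled untreated and 3, 3 and 6 in those labelled TNF. Mycl did not pass the filter. The 141 counts stand apart: they correspond to 4.08 CPM in m-ICc12 culture 1, against 0.152 and 0.119 CPM in the other 2 cultures. Gucy2c, which lay between 268 and 376 CPM in organoids labelled untreated, did not exceed 0.897 CPM in any of these 3 m-ICc12 libraries. Whether the responses of organoids and m-ICc12 differ was not tested, since the organoid response chose the genes.

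**Figure D2:**
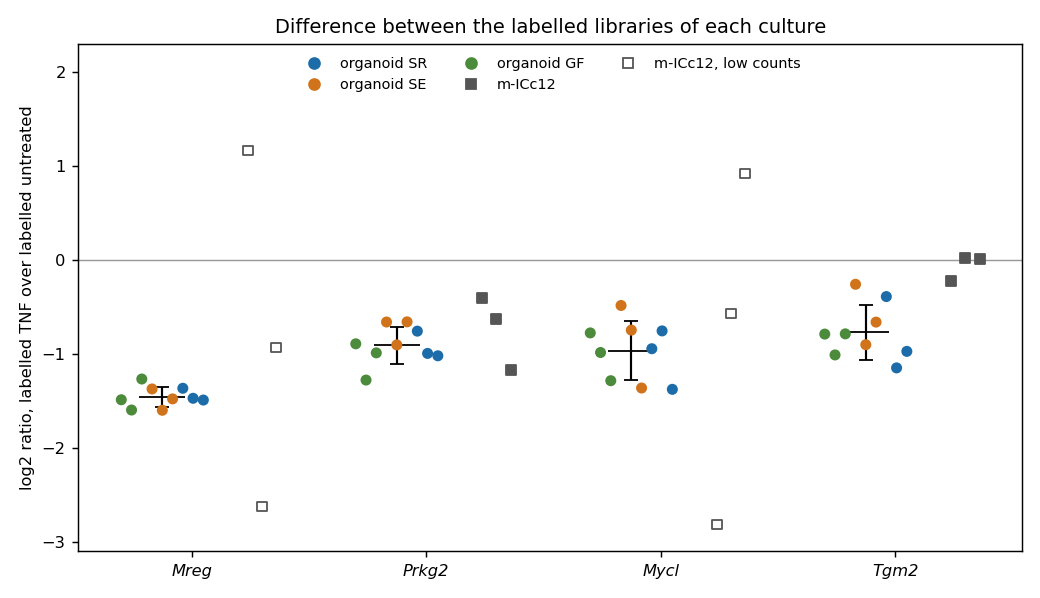
Log2 ratio of the library labelled TNF over that labelled untreated for each culture (log2 CPM, prior count 2), with organoid cultures as circles coloured by facility, their mean and SD in black, and m-ICc12 cultures as squares (open where counts are low). All 36 organoid ratios are below 0, Mreg has the narrowest spread, and the m-ICc12 ratios of Prkg2 are below 0 while those of Tgm2 lie near 0.

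Levels between cell types were compared in the libraries labelled untreated, and again in the libraries labelled TNF because of the label question. The organoid libraries in these tests are those whose difference chose the genes, so values are given for both label sets. That choice favoured a high level in the organoid libraries labelled untreated. By the name code, the organoid and m-ICc12 libraries labelled untreated had TNF, while the MEFs had none. In that case the tests of those libraries against MEFs mix treatment with cell type. In bulk RNA, fewer cells that express a gene and less RNA per cell cannot be told apart.

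Mreg and Mycl were highest in organoids. In the libraries labelled untreated, Mreg was 128-fold higher in organoids than in m-ICc12 (log2 7.0, SE 0.38, adjusted p = 8.99e-11, edgeR) and 16.6-fold higher than in MEFs (log2 4.05, SE 0.22, adjusted p = 1.14e-10, edgeR). Its 3 MEF libraries held 4.33, 3.28 and 7.24 CPM, all below the lowest organoid library. Mycl passed the filter on low values against m-ICc12 through its organoid level only, so its difference there is a description. It was 59.3-fold higher in organoids (log2 5.89, SE 0.77), and 205-fold higher in the libraries labelled TNF, where the m-ICc12 library with 141 counts does not enter. Leaving out 1 culture at a time gave log2 differences from 5.34 to 9.21, the highest of them without m-ICc12 culture 1. Mycl was 42.9-fold higher in organoids than in MEFs, which held 1.68, 3.13 and 0.839 CPM (log2 5.42, SE 0.32, adjusted p = 2.87e-10, edgeR), and 22.1-fold higher in the libraries labelled TNF. In the libraries labelled TNF, Mreg was 121-fold higher in organoids than in m-ICc12 and 5.99-fold higher than in MEFs.

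Tgm2 had the reverse order for the epithelial line. m-ICc12 held 6.94-fold more than organoids in the libraries labelled untreated (log2 organoid over m-ICc12 -2.79, SE 0.08, adjusted p = 8.47e-14, edgeR) and 11.3-fold more in those labelled TNF. MEFs held the least, at 8.28, 9.38 and 6.06 CPM. Organoids labelled untreated exceeded them 17.8-fold (log2 4.15, SE 0.15, adjusted p = 5.71e-13, edgeR) and those labelled TNF 10.5-fold. m-ICc12 exceeded MEFs 120-fold labelled untreated (log2 6.91, SE 0.19, adjusted p = 1.25e-11, edgeR) and 119-fold labelled TNF. Rprd1b in contrast lay between 41.1 and 93.4 CPM in all 27 libraries.

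Prkg2 differed least between the 3 cell types, and its order depended on the labels. In the libraries labelled untreated, organoids held 1.51-fold more than m-ICc12 (log2 0.59, SE 0.17, adjusted p = 0.00546, edgeR) and 1.5-fold more than MEFs, which held 75.9, 67.9 and 82.6 CPM (log2 0.59, SE 0.14, adjusted p = 0.00144, edgeR). In the libraries labelled TNF, the log2 difference of organoids from m-ICc12 was 0.44 (SE 0.17, adjusted p = 0.0292, edgeR). With the organoid libraries labelled TNF, the difference from MEFs turned to -0.32 (SE 0.15, adjusted p = 0.061, edgeR). Against MEFs, m-ICc12 labelled untreated differed by -0.05 (95% interval -0.47 to 0.37, adjusted p = 0.849, edgeR) and m-ICc12 labelled TNF by -0.77 (SE 0.17, adjusted p = 0.0032, edgeR).

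Between the cell lines, Mreg was lower in m-ICc12 than in MEFs by 8.18-fold in the libraries labelled untreated (log2 -3.03, SE 0.79, adjusted p = 0.0052, edgeR). In the m-ICc12 libraries labelled TNF, Mreg had 2, 3 and 9 counts and passed the filter through the MEFs only. There its difference is a description: it was lower by 18.4-fold (log2 -4.20, SE 0.88). Mycl passed the filter here through the MEFs only, so its values are a description. For Mycl the log2 difference of m-ICc12 from MEFs was -0.44 (95% interval -2.93 to 2.06), and this rested on 1 library. Without m-ICc12 culture 1 it was -3.79.

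In the libraries labelled untreated, Mreg, Prkg2 and Tgm2 passed the test of organoids against m-ICc12, all 4 genes that of organoids against MEFs, and Mreg and Tgm2 that of m-ICc12 against MEFs. Of all genes tested, 60.9%, 67.2% and 59.3% passed the same 3 tests, so the counts are near the background.

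**Figure D3:**
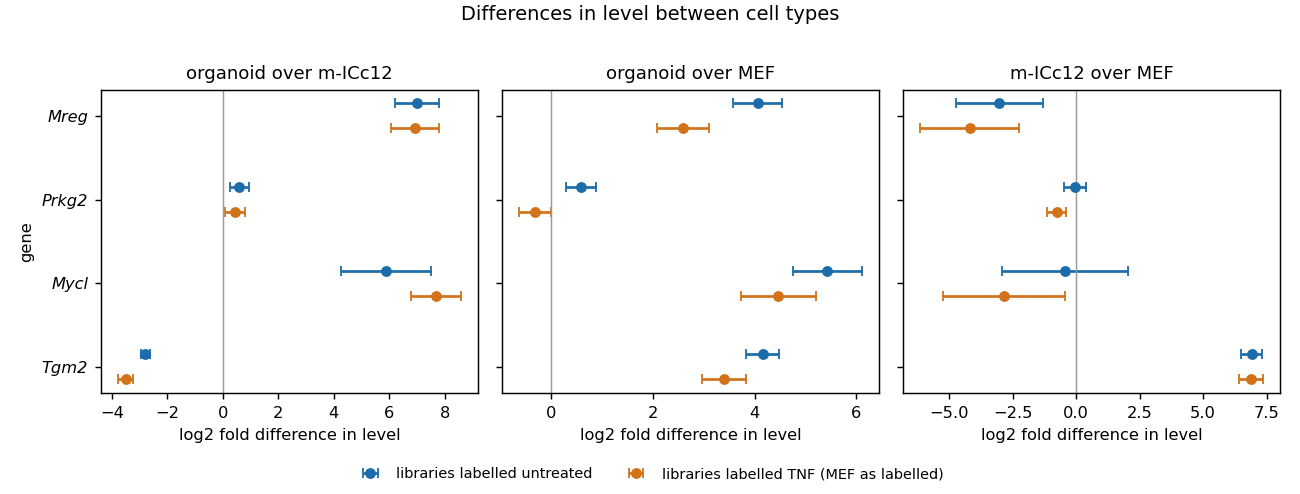
Log2 fold difference in level between cell types (x axis) with its 95% interval for each gene, from the libraries labelled untreated (blue) and from those labelled TNF with the MEFs as labelled (orange). Mreg and Mycl lie at 5.89 or above for organoid over m-ICc12, Tgm2 lies at 6.89 or above for m-ICc12 over MEF, and Prkg2 stays within 0.77 of 0 throughout.

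No difference by the origin of the mice passed the test for any of the 4 genes. The genes were chosen from these same organoid libraries. Their spread labelled untreated was below the median of all genes, which leaves less room for such a difference. The absence of calls is therefore not a result about origin. In the libraries labelled untreated, Mreg averaged 81.9 ± 6.89 CPM in the SR cultures, 78.0 ± 5.86 in the SE cultures and 84.3 ± 2.77 in the GF cultures (SD, n = 3 each). Mycl was the gene with the largest difference, at 80.4 ± 7.48, 74.7 ± 3.88 and 92.3 ± 9.74 CPM in the same order. Prkg2 averaged 106 ± 21.5, 123 ± 6.44 and 110 ± 19.3 CPM, and Tgm2 143 ± 15.7, 138 ± 4.5 and 142 ± 1.46 CPM.

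Between GF and SPF organoids labelled untreated, 0 of 4 genes were called with edgeR, where 0.0325% of the genes tested were. Mycl differed by 0.26 on the log2 scale (95% interval -0.03 to 0.54, adjusted p = 1.0, edgeR), and the intervals of the other 3 genes lay within -0.38 and 0.35. Between SR and SE, 0 of 4 genes were called, and 0% of all genes tested. Of those genes, 486 had an unadjusted p under 0.05 with edgeR, and DESeq2 called 8. The largest of the 4 differences was that of Prkg2, at -0.22 (95% interval -0.59 to 0.15). The difference between GF and SPF in the TNF label response was 0.02 for Mreg, -0.24 for Prkg2, -0.10 for Mycl and -0.16 for Tgm2 on the log2 scale. Their 95% intervals lay between -0.70 and 0.40. These values are a description, since the genes were chosen for their differences in the same 9 cultures. Of all genes tested, 0% were called with edgeR, 323 had an unadjusted p under 0.05, and DESeq2 called 1.

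Across the 9 organoid cultures, the mean of both labelled libraries does not contain the TNF label difference, and it was used to ask whether the genes go together. Of 6 pairs, Mreg and Prkg2 had the strongest relation, and it was inverse (Pearson's r = -0.82, exact permutation p = 0.00221, adjusted p = 0.0132; Spearman's rho = -0.75, exact permutation p = 0.0255, adjusted p = 0.0934). Without the 2 cultures farthest from the median of Mreg, r was -0.55 with an exact permutation p of 0.152, so as a call the relation rests on those cultures. As deviations from the facility mean, r was -0.82 with an exact permutation p of 0.0509, and the facilities hold too few cultures for values of their own. Mreg and Mycl went the same way (r = 0.69, exact permutation p = 0.0411, adjusted p = 0.123; Spearman's rho = 0.73, exact permutation p = 0.0311, adjusted p = 0.0934). The other 4 pairs had r between -0.43 and 0.32 and adjusted exact permutation p-values from 0.491 to 0.912.

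**Figure D4:**
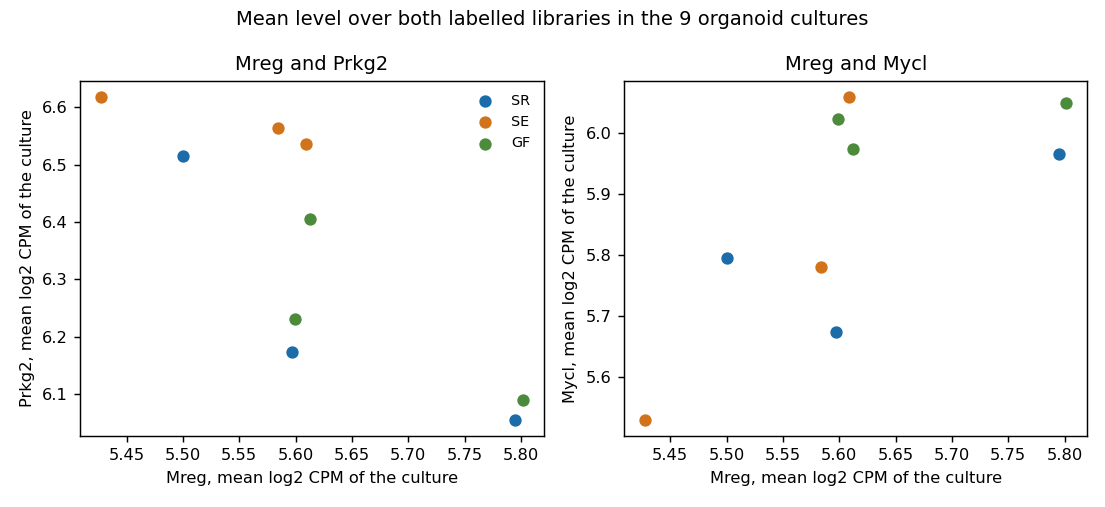
Mean log2 CPM of Prkg2 (left) and Mycl (right) against that of Mreg, with a point for each of the 9 organoid cultures coloured by facility. The 2 cultures with the most Mreg, from SR and GF, have the least Prkg2, and the culture with the least Mreg, from SE, has the most Prkg2 and the least Mycl.

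The genes most like each of the 4 were taken by Pearson's r of log2 CPM. Over the 18 organoid libraries these carry the label difference that chose the genes and are a description. Mreg was most like Clca3b (r = 0.985), Nfkb2 (0.979) and Nfkbia (0.975). Prkg2 was most like genes of antigen presentation by MHC class I, namely B2m (r = 0.921) and H2-M2 (0.916), followed by Nfkbia (0.910). Mycl was most like Clca3b (r = 0.934), Mreg (0.923) and the complement gene C3 (0.894). Tgm2 was most like Casp4, an inflammatory caspase (r = 0.920), and like Noxo1 (0.910) and Cyba (0.910), which both encode parts of NADPH oxidases.

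Over all 27 libraries, which also differ in cell type, Prkg2 shared 2 of its 3 neighbours with the organoid libraries and the other 3 genes shared none. Mreg was most like Tmem97 (r = 0.976), the lysosomal protease gene Ctsh (0.975) and the cholesterol acyltransferase gene Soat1 (0.975). Prkg2 was most like Nfkbia (r = 0.870), Tapbp, which loads peptides on MHC class I (0.838), and H2-M2 (0.820). Mycl was most like Pisd (r = 0.975), Tmed3 (0.971) and Sfn (0.968). Tgm2 was most like Tmem176a (r = 0.983), the glutamine synthetase gene Glul (0.975) and the carboxypeptidase M gene (0.974). Of these 24 places, 7 stayed among the 3 highest by Spearman's rho. Libraries of 1 culture are not independent, so no p is given.

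Most genes of the pathways around the 4 genes were not called by TNF label in organoids. Of the TNF and NF-κB targets, 9 of 11 genes tested were lower in the libraries labelled TNF and 0 higher, where 1.26% of all genes tested were called lower. Their median log2 difference was -1.54, against -0.00 over all genes tested. The 9 were Nfkbia (log2 -2.66, SE 0.10), Nfkb2 (-1.79, SE 0.11), Tnfaip3 (-1.54, SE 0.12), Relb, Birc3, Bcl3, Tnip1, Icam1 and Tnf, with adjusted p-values of 0.000117 or less from edgeR. In m-ICc12, 0.11% of all genes tested were called. Of the 11 listed targets tested there, 6 were lower in the libraries labelled TNF and 0 higher. The 6 included Nfkbia (log2 -2.13, SE 0.23, adjusted p = 0.000395, edgeR) and the chemokine gene Cxcl1 (log2 -1.83, SE 0.20, adjusted p = 0.000395, edgeR). Tnf was at 0 CPM in m-ICc12 and Traf1 at 0 CPM in organoids, so the genes tested were not all the same.

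With 1.39% of all genes called, 0 calls in a list of 6 to 18 genes is near the background. Around Mreg, 0 of 18 tested genes of melanosome and lysosome transport were called in organoids, and their median log2 difference was -0.03. Mlph, which encodes the melanosome adaptor melanophilin, stood at a median of 40.3 CPM labelled untreated and 42.6 CPM labelled TNF. Its log2 difference was 0.06 (SE 0.14, adjusted p = 0.968, edgeR). Rab27a, the GTPase that recruits melanophilin, had a log2 difference of -0.50 (SE 0.51, adjusted p = 0.903, edgeR) at levels of at most 6.20 CPM. In m-ICc12, 0 of 17 were called. Mlph, like Mreg, was low in m-ICc12, at 1.39 CPM or less.

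Around Prkg2, 2 of 9 tested genes of cGMP signalling were lower in the organoid libraries labelled TNF, against 1.26% of all genes tested, and 0 higher. The list's median was -0.03. Abcc4, an exporter of cyclic nucleotides, had a median of 41.8 CPM labelled untreated and 23.3 CPM labelled TNF (log2 -0.89, SE 0.18, adjusted p = 0.00583, edgeR). Guca2a, which encodes the ligand guanylin, had medians of 308 and 176 CPM (log2 -0.72, SE 0.18, adjusted p = 0.0413, edgeR). The call of Guca2a was lost with all 27 libraries in 1 fit (adjusted p = 0.0672) and in 7 of the 9 fits that left out a culture. Those fits did not pair the libraries of a culture. With the culture as a block, Guca2a was called (log2 -0.71, SE 0.06, adjusted p = 1.94e-10, edgeR). Guca2b, the uroguanylin gene, had a log2 difference of -0.76 (SE 0.24, adjusted p = 0.158, edgeR), and blocking on culture gave -0.72 (adjusted p = 1.36e-08, edgeR). The receptor gene Gucy2c had medians of 331 and 371 CPM (log2 0.11, SE 0.08, adjusted p = 0.821, edgeR). Prkg1, the other cGMP-dependent kinase gene, had 0 counts in all 18 organoid libraries, which allows up to 3 counts per library. In m-ICc12, 0 of 10 were called, and Gucy2c stayed at or below 3.12 CPM while Prkg2 reached 98.5 CPM.

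Around Mycl, 0 of 14 tested genes of the MYC and MAX network were called in organoids, and their median was -0.02. Myc had medians of 69.0 CPM labelled untreated and 91.5 CPM labelled TNF, a direction opposite to that of Mycl (log2 0.42, SE 0.13, adjusted p = 0.175, edgeR). Blocking on culture, Myc was higher by 0.44 (adjusted p = 0.0015, edgeR). Mycn had a log2 difference of 0.78 (SE 0.46, adjusted p = 0.703, edgeR) and Max one of 0.05 (SE 0.10, adjusted p = 0.954, edgeR). In m-ICc12, 0 of 13 were called. By cell type, Myc had its highest mean in MEFs, at 134 CPM, and its range there met that of organoids labelled TNF. Mycn lay between 5.29 and 12.0 CPM in m-ICc12, overlapping the organoid range, and did not exceed 0.142 CPM in MEFs.

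Around Tgm2, 8 of 9 genes of the transglutaminase list, which also counts the factor XIII carrier subunit gene F13b, fell below the filter in organoids. Tgm3 had 0 counts in all organoid and m-ICc12 libraries. Tgm1 was at most 0.476 CPM in organoids and between 1.62 and 4.12 CPM in m-ICc12. The tested gene Epb42 had a log2 difference of 0.28 (SE 0.87, adjusted p = 0.977, edgeR). Of the matrix proteins and receptors that bind transglutaminase 2, 0 of 6 were called in organoids and 0 of 7 in m-ICc12. The fibronectin gene Fn1, with a median of 4.84 CPM in organoids labelled untreated, reached 730 CPM in m-ICc12 labelled untreated and 3465 CPM in MEFs, where Tgm2 was lowest.

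**Figure D5:**
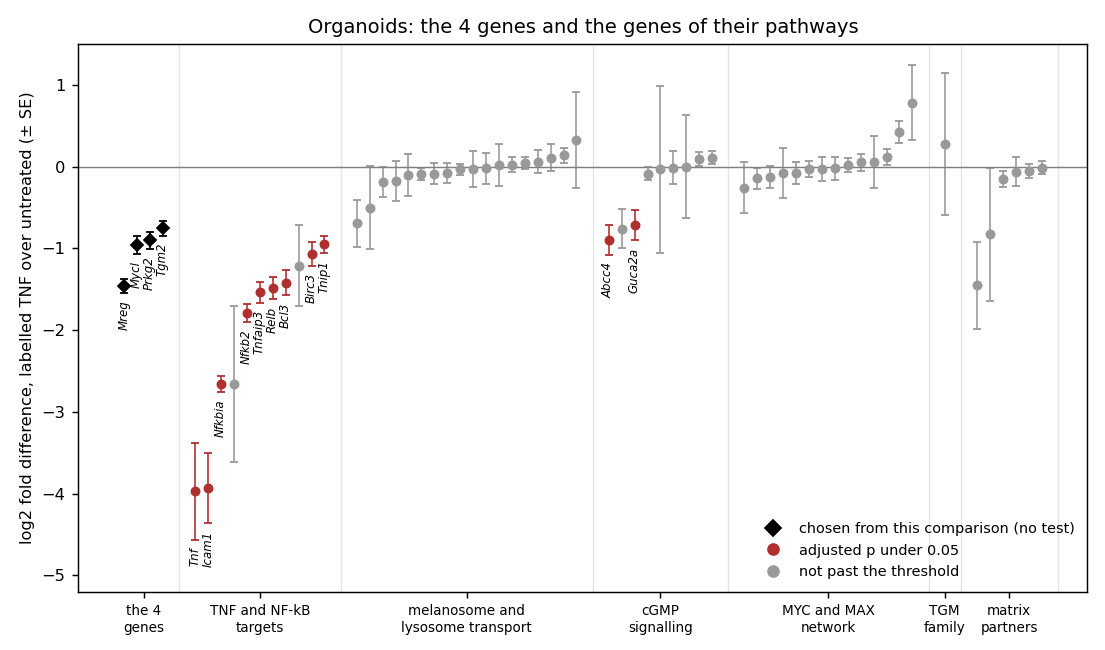
Log2 fold difference of the organoid libraries labelled TNF over those labelled untreated (± SE) for the 4 genes (diamonds) and the tested genes of 6 lists (circles, red where the adjusted p was under 0.05), sorted within each list. The 9 called TNF and NF-κB targets lie between -3.97 and -0.95, and the 4 chosen genes between -1.46 and -0.75. In the other lists only Abcc4 and Guca2a were called. Some genes there that were not called, among them Guca2b and Mycn, lie about as far from 0 as Tgm2.

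Of the 4 markers of intestinal stem cells, 2 were lower in the organoid libraries labelled TNF, where 1.26% of all genes tested were called lower. Olfm4 was lower in the libraries labelled TNF by a log2 difference of -1.82 (SE 0.29, adjusted p = 0.000238, edgeR) and Ascl2 by -1.70 (SE 0.23, adjusted p = 3.45e-05, edgeR), while Lgr5 (0.06, SE 0.20) and Smoc2 (0.11, SE 0.10) were not called. The 4 markers summed to between 1074 and 2868 CPM in the libraries labelled untreated and between 713 and 1689 CPM in those labelled TNF, and none of them was at 0. Olfm4 weighed most in this, with means of 891 CPM labelled untreated and 252 CPM labelled TNF. The means of Lgr5 (153 and 160 CPM) and Smoc2 (532 and 572 CPM) were slightly higher labelled TNF. Of the 29 tested genes of 10 other marker lists, 0 were called, and 4 were with the culture as a block. The part of these markers in the differences of the 4 genes was not tested.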

How the data were processed

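The authors trimmed the reads with Trimmomatic, aligned them to GRCm38 with STAR and deposited whole-number read counts per gene, without normalization. The submitters' processing notes name STAR 2.5.4b and featureCounts, the paper's methods GenomicRanges, and strand and multi-mapping settings are not given in the sources used here. Symbols and exon lengths came from GENCODE M21 on the same build.

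Genes with 10 or more counts in 50% or more of a group's libraries were tested. Comparisons used edgeR 4.0.16 (R 4.3.3) with TMM and quasi-likelihood F-tests on the groups compared, and Benjamini-Hochberg adjustment over all genes tested. CPM and RPKM shared 1 TMM normalization over the 27 libraries, and log2 CPM used a prior count of 2. Intervals are 95%. DESeq2 1.42.0, no filter, a culture block, all libraries in 1 fit, exchanged labels and leaving out each culture were alternatives. Exchanged labels in the organoid TNF comparison were chosen after seeing the data. The fits were run on simulated counts with larger differences than the organoid label differences of the chosen genes, and without a culture effect. Differences of that smaller size and the pairing of libraries were therefore not covered. Correlations used scipy 1.17.1 with all 362880 pairings. The 2 libraries of an organoid culture come from 1 mouse, and their deviations correlated at 0.08 to 0.25, each above the highest correlation with another culture.

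The 4 genes and all lists were chosen with earlier results of these data known. Genes named are the 4, the 3 most like each, and from each list those called and close relatives. Max, Epb42, Fn1 and the markers were named after their values were seen. Whether m-ICc12 and MEF libraries are separate cultures is known from their numbers only, so p-values there may measure technical spread.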

Additional observations from a re-analysis of the deposited data

How the results depend on the processing

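Exchanging the treatment within each pair turned the organoid differences to 1.46 (Mreg), 0.90 (Prkg2), 0.96 (Mycl) and 0.75 (Tgm2), and those in m-ICc12 to 1.16 (Mreg), 0.76 (Prkg2) and 0.049 (Tgm2), by construction. The same exchange turned Prkg2 in organoids against MEFs to -0.32, Tgm2 in GF against SPF organoids to -0.14, and Mycl and Tgm2 in SR against SE organoids to -0.094 and -0.21. It brought m-ICc12 against MEFs past the threshold for Prkg2 (-0.77). For Mycl it gave -2.85, a description since Mycl passed the filter through the MEFs only.

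The correlation of Mreg with Prkg2 no longer passed as Spearman's rho (-0.75), as deviations from the facility mean (-0.82) or without the 2 farthest cultures (-0.55). That of Mreg with Tgm2 turned to -0.077 without the 2 farthest cultures, and that of Prkg2 with Tgm2 to -0.26 as deviations from the facility mean.

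The number of genes called in m-ICc12 by TNF label was 46 with DESeq2, 30 without the filter and 35 with all libraries in 1 fit. With the culture as a replicate block it was 6, and Nfkb2, Relb, Tnfaip3 and Nfkbie lost their calls. The m-ICc12 cultures share only a number, with correlations of 0.03, -0.00 and 0.10. In organoids the replicate block gave 397 calls, and it moved the log2 differences of the 4 genes by less than the spread between cultures. With all libraries in 1 fit the organoid difference of Mycl was -0.95 with an SE of 0.32, against 0.11 with the organoid libraries alone. DESeq2 called 21 genes in GF against SPF, 8 in SR against SE and 1 in the difference of responses. SR against SE gave 5 calls without the filter and 1 with exchanged labels.

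Leaving out 1 culture at a time gave between -0.085 and 0.020 for Tgm2 by TNF label in m-ICc12, between -0.31 and 0.094 for Prkg2 and between -3.79 and 0.21 for Mycl in m-ICc12 against MEFs. It gave between -0.21 and 0.028 for Prkg2 and between -0.015 and 0.053 for Tgm2 in GF against SPF, and between -0.049 and 0.12 for Tgm2 in SR against SE. In the difference of responses it gave between -0.082 and 0.086 for Mreg and between -0.22 and 0.037 for Mycl. Calls ranged from 15 to 93 in m-ICc12 by TNF label (93 without m-ICc12 culture 2), from 2 to 5 in GF against SPF (2 without any 1 of the GF cultures) and from 0 to 35 in SR against SE (35, 6 and 1 when 1 of 3 single cultures was left out, the first and the last from SR and the second from SE). Mlph in organoids, and Rab27a, Guca2a, Abcc4, Myc and Olfm4 in m-ICc12, changed sign in at least 1 of these fits. Mlph ranged from -0.033 to 0.17 in organoids. In m-ICc12, Rab27a ranged from -0.97 to 1.67, Guca2a from -0.58 to 0.092, Abcc4 from -0.18 to 0.094, Myc from -0.29 to 0.036 and Olfm4 from -1.32 to 1.14. The cause of these changes was not tested. Low counts limit what can be said of Mreg and Mycl in m-ICc12, where 11 of their 12 values were 39 counts or fewer.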
